A study of Mus musculus with 6 samples.

Results

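Store-operated calcium entry and the genes that shape it were examined in cultured mouse mast cells: 10 genes, Stim1, Stim2, Orai1, Orai2, Orai3, Itpr1, Itpr2, Itpr3, Trpm4 and Kcnn4, of the 35297 genes to which the deposited transcripts could be matched. The genes were chosen by name for their known roles, with earlier results of these data known. The cells were bone marrow-derived mast cells (BMMCs) grown from naive wild type mice of the inbred strains BALB/c and C57BL/6 with stem cell factor, TGF-β1, IL-9 and IL-3. They were sequenced on day 20, as 3 BALB/c libraries (S9, S10 and S11) and 3 C57BL/6 libraries (S12, S13 and S14). The age and sex of the mice that gave the marrow are not given in the sources used here, where the age and sex stated in the methods are those of the mice of the airway experiment. The study calls them 3 biological replicates, but the labels do not say which libraries came from separate animals or cultures. The p-values therefore measure the spread between these libraries. Each library held between 28273365 and 37100869 reads on genes.

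Crosslinking of the IgE receptor on a mast cell activates phospholipase C, which makes inositol trisphosphate. This messenger opens its receptors (Itpr1 to Itpr3) in the endoplasmic reticulum and empties that calcium store. The STIM proteins sense the emptied store and open the ORAI channels of the plasma membrane, and the calcium that enters is needed for degranulation and cytokine transcription. The potassium channel KCNN4 hyperpolarises the membrane and so favours calcium entry, whereas the cation channel TRPM4 depolarises it and limits entry.

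The label of the cells was compared with marker genes first. All 10 mast cell markers passed the filter on low counts, and their summed level ranged from 34990 to 38518 TPM in BALB/c and from 29144 to 31438 TPM in C57BL/6 libraries. The largest parts of this sum were Cma1, at 15390 and 10090 TPM, and Cpa3, at 12690 and 11070 TPM and not called. On the count scale 5 of the markers were called higher in C57BL/6 (Kit, Fcer1a, Ms4a2, Fcer1g and Hdc) and 2 lower (Mitf and Cma1). Over all genes the shares were 27.0% and 25.9%. The median log2 fold change of the markers was 0.10. TPM is a level per transcript length, which allows genes to be compared with one another. Summed basophil markers were at 515 to 530 TPM in BALB/c and 640 to 668 TPM in C57BL/6 BMMCs, with 5 of 8 called higher in C57BL/6 and 1 lower, against 27.0% and 25.9% of all genes. Of these 4 were past a fold change of 2, with Cebpa 92.7-fold, Prss34 58.1-fold, Ccl9 46.0-fold and Mcpt8 2.17-fold higher, and the median log2 fold change was 1.06. Cebpa, Prss34 and Ccl9 had few reads in BALB/c, at 2 to 5, 1 to 8 and 5 to 13 per library. Il18r1 was lower in C57BL/6 (log2 fold change -0.54, adjusted p = 0.00415). Cd200r3, at 339 TPM in BALB/c and 286 TPM in C57BL/6, and Itga2 were not called. Of 8 macrophage markers 2 were tested, Adgre1 and Cd68, and both were higher in C57BL/6, with sums of 0.94 to 1.77 TPM against 8.34 to 9.72 TPM, while C1qa, C1qb, C1qc and Csf1r had 0 reads in each library. Erythroid markers summed to 7.52 to 9.49 TPM in BALB/c and 19.4 to 19.7 TPM in C57BL/6 libraries. The higher sum came from Hbb-bt, at 0 TPM in each BALB/c library and 16.3 to 16.9 TPM in C57BL/6. Epor was lower in C57BL/6, at 7.12 TPM in BALB/c and 2.47 TPM in C57BL/6. Hba-a1, not tested, was at 0.69 to 1.27 TPM in BALB/c and 0.24 to 0.53 TPM in C57BL/6, and Hba-a2 had 0 reads. Among T and NK cell markers (4.23 to 6.30 TPM) only Ncr1 was tested and Cd3e, Cd3d and Cd3g had 0 reads. No neutrophil marker had more than 4 reads and no fibroblast marker more than 1 read in any library. The part of these other cell types in the strain differences was not tested. In bulk RNA, fewer cells of a type and less RNA per cell cannot be told apart.

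Sequences are shown for the genes on which the comparison turns. The first is a coding exon of Itpr2, since transcripts of this gene that differ in length by just its 99 bases were divided differently in the strains. It is exon 6 of 57 in the GENCODE model Itpr2-201, lies at chr6:146319916-146320014 of GRCm39 on the minus strand, and its length equals 33 codons. The model Itpr2-202 lacks it. The exon is in capitals, with 20 bases of intron on either side in lower case.
Itpr2 exon 6: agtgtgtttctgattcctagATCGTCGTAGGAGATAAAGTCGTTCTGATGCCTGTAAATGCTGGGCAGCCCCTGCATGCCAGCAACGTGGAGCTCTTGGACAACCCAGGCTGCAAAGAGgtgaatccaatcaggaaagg

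Promoters follow for Stim1, the gene that was lower in C57BL/6, and for Orai1 and Kcnn4, which were higher. They are RefSeq sequences of GRCm38.p6, from 250 bases before to 50 bases after the start of the gene, at chr7:102267569-102267868 (Stim1), chr5:123014824-123015123 (Orai1) and chr7:24370013-24370312 (Kcnn4), all on the plus strand. Of the 10 genes, 8 had an entry. Capitals mark matches, on either strand, to letters bound by factors of mast cells: GATAA (GATA factors), CACGTG (an E-box, bound by MITF) and TTCNNNGAA (STAT factors).
Stim1 promoter: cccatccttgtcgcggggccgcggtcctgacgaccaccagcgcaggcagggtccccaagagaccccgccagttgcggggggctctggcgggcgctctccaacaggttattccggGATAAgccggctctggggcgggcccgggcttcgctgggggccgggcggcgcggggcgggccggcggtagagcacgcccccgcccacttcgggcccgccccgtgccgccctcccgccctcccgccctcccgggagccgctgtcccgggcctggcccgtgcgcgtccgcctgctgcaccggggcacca
Orai1 promoter: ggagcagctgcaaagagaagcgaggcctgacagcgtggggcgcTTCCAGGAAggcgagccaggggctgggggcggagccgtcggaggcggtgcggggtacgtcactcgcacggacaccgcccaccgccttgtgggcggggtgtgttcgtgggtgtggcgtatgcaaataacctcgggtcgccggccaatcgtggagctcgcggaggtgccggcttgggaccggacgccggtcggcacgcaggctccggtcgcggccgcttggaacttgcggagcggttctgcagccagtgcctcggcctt
Kcnn4 promoter: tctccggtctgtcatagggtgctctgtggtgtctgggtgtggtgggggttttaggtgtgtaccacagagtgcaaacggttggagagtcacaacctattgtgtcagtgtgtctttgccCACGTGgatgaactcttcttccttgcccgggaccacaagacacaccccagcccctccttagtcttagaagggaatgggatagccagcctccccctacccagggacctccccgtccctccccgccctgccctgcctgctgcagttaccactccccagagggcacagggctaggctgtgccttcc

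Stim1 held 1 GATAA, Orai1 held 1 TTCNNNGAA and Kcnn4 held 1 CACGTG, and these matches did not overlap another of the motifs. Over all 32851 promoters of this length, 25.41% held GATAA, 8.298% held TTCNNNGAA and 7.15% held CACGTG. Among the other entries Orai2 held 2 CACGTG and Itpr3 held 1, while Stim2, Orai3 and Itpr2 held none of the 3 motifs. GC content ran from 57.67% in Orai3 to 78.67% in Stim1, against a median of 52.7% over all promoters. The Kcnn4 window held 6 CpG dinucleotides and that of Stim1 38, against a median of 7. A match describes the letters of the window and not binding.

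All 10 genes were expressed above the filter in both strains, over a wide range of levels. Kcnn4 was by far the most abundant, at 207 ± 8.62 TPM in BALB/c and 292 ± 3.88 TPM in C57BL/6 BMMCs (mean ± SD, n = 3 libraries per strain, as throughout). This placed it at percentile 95.9 and 97.4 of the 12461 genes tested. In BALB/c BMMCs the order below it was Stim1 (29.6 ± 3.07 TPM), Orai3 (27.9 ± 1.02), Orai1 (23.3 ± 0.903), Itpr2 (18.3 ± 1.82), Orai2 (17.5 ± 0.858), Stim2 (9.55 ± 0.443), Itpr1 (6.43 ± 0.235), Trpm4 (3.78 ± 0.281) and Itpr3 (2.91 ± 0.960). The ranges of Stim1 and Orai3, of Itpr2 and Orai2, and of Trpm4 and Itpr3 overlapped, so the order within these pairs did not exceed the spread between libraries. In C57BL/6 BMMCs Stim1 stood in a lower place, at 20.4 ± 0.672 TPM, below Orai1 (28.6 ± 1.21), Orai3 (27.1 ± 1.37) and Itpr2 (24.2 ± 0.717). It was followed by Orai2 (18.1 ± 0.808), Stim2 (9.22 ± 0.526), Itpr1 (7.05 ± 0.0690), Trpm4 (4.10 ± 0.105) and Itpr3 (4.07 ± 0.422). Here the ranges of Orai1 and Orai3 and those of Trpm4 and Itpr3 overlapped.

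**Figure D1:**
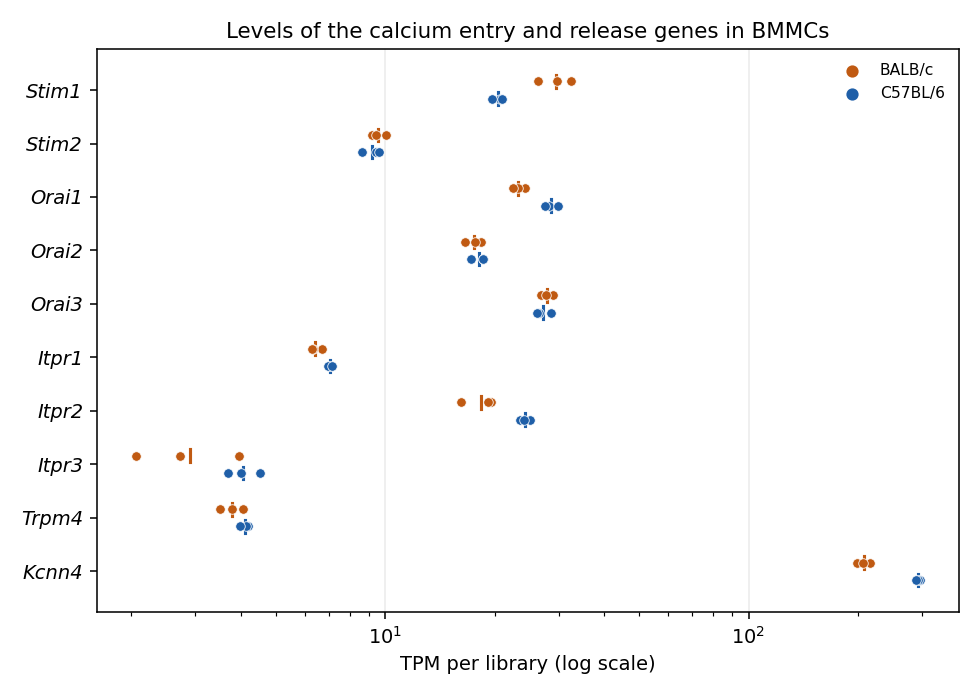
Level of each gene in TPM (log axis), with 1 point per library, a vertical bar at the strain mean, BALB/c in orange and C57BL/6 in blue. Kcnn4 lies above 198 TPM in each library and all other genes below 33 TPM, and the Stim1 points of the strains are separated, with BALB/c higher.

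The strain comparison was made on read counts, with edgeR's quasi-likelihood test and Benjamini-Hochberg adjustment over all genes tested. Differences are log2 fold changes of C57BL/6 over BALB/c, and values per library are reads scaled to library size (CPM) with the TMM method, which sets the bulk of genes equal between libraries. Of the 10 genes 9 passed an adjusted p of 0.05, against 52.9% of all genes tested. Higher in C57BL/6 were 8, against 27.0% of all genes, and lower was 1, against 25.9%. With a library left out, the higher count was between 5 (without S13) and 8. None passed a fold change of 2 as well, which 13.3% of all genes did. In each of the 10 all 3 libraries of a strain lay beyond those of the other in CPM, as in 61.9% of all genes. The median difference was 0.29 over the 10 genes and -0.007 over all genes tested.

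Scaling affects these differences. With plain library size in place of TMM the median of all genes moved to -0.15, each of the 10 genes moved down by about as much, and the calls among the 10 genes became 5 higher and 1 lower. With limma on log2(TPM + 1) the median of all genes was -0.15 and the calls were 3 higher and 1 lower. Stim1, Orai1, Itpr2 and Kcnn4 kept their call under each other test, scaling, filter and left-out library run, though not where a fold change of 2 was also required. Stim2 and Orai3 changed sign under both of these scalings. In TPM the libraries of the strains overlapped for Stim2, Orai2, Orai3, Itpr3 and Trpm4.

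**Figure D2:**
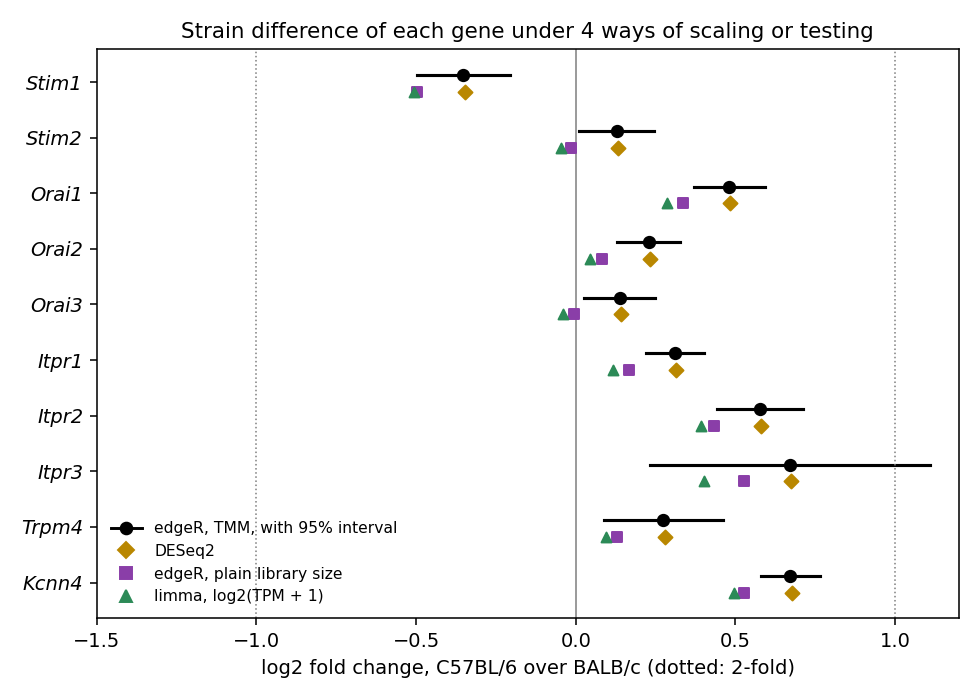
Log2 fold change of each gene, C57BL/6 over BALB/c, from edgeR with TMM (black point, line the 95% interval), DESeq2 (diamond), edgeR with plain library size (square) and limma on log2(TPM + 1) (triangle), with dotted lines at a fold change of 2. Stim1 lies below 0 and Orai1, Itpr2 and Kcnn4 above 0 under all 4, whereas Stim2 and Orai3 lie above 0 with TMM or DESeq2 and below 0 with plain library size or TPM.

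The STIM proteins are the calcium sensors of the endoplasmic reticulum. Stim1 (chr7:101916979-102086526 of GRCm39, plus strand), the main sensor of store depletion, was at 81.5, 90.2 and 74.7 CPM in BALB/c and at 63.4, 63.9 and 65.6 CPM in C57BL/6 libraries. The BALB/c libraries were all higher, with S10 the highest, and were more spread than those of C57BL/6. Stim1 was 0.784 times the BALB/c level in C57BL/6, a log2 fold change of -0.35 (SE 0.064, 95% interval -0.50 to -0.21, adjusted p = 0.00144), and it was the only gene of the 10 called lower. Leaving out each library in turn gave -0.42 to -0.28, and plain library size gave -0.50. Stim2 (chr5:54155778-54278399, plus strand), which responds to smaller losses from the store and sets resting calcium, was at 33.1, 30.7 and 32.1 CPM in BALB/c and 34.9, 33.6 and 36.3 CPM in C57BL/6. Its difference of 0.13 (SE 0.052, interval 0.011 to 0.25) did not pass the test (adjusted p = 0.0645), and its direction depended on the scaling, with -0.016 under plain library size.

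The ORAI proteins form the channel. Orai1 (chr5:123153043-123168535, plus strand), its main pore subunit, was at 28.7, 27.7 and 27.3 CPM in BALB/c and at 37.8, 38.3 and 40.5 CPM in C57BL/6 BMMCs. The lowest C57BL/6 library was well above the highest BALB/c library. Orai1 was 1.39-fold higher in C57BL/6 (log2 fold change 0.48, SE 0.049, interval 0.37 to 0.59, adjusted p = 4.01e-05), in contrast to Stim1, and was at 0.29 on the log2(TPM + 1) scale. Orai2 (chr5:136176310-136200044, minus strand), a homologue that can join ORAI1 in the channel, was at 47.8, 46.5 and 44.6 CPM in BALB/c and 54.5, 52.6 and 55.4 CPM in C57BL/6. It was called higher by 0.23 (SE 0.043, adjusted p = 0.00191), but not with plain library size, where the difference was 0.083, nor on the TPM scale. Orai3 (chr7:127368982-127374330, plus strand), the homologue found only in mammals, was at 36.65, 34.5 and 36.2 CPM in BALB/c and 40.8, 39.5 and 37.8 CPM in C57BL/6. Its difference of 0.14 (SE 0.048) was close to the threshold (adjusted p = 0.0394). DESeq2 gave 0.14 with an adjusted p of 0.0996, plain library size gave -0.007, and the call was also lost without S10 (0.11), S11 (0.14), S12 (0.11) or S13 (0.14).

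The inositol trisphosphate receptors release calcium from the store. Itpr2 (chr6:146009797-146403721, minus strand), the most abundant of them here, was at 158, 157 and 135 CPM in BALB/c and at 225, 222 and 222 CPM in C57BL/6. S11 was the lowest library and the C57BL/6 libraries were nearly equal. It was 1.49-fold higher in C57BL/6 (log2 fold change 0.58, SE 0.060, interval 0.44 to 0.71, adjusted p = 4.3e-05). Itpr1 (chr6:108190048-108528070, plus strand) was at 45.1, 43.0 and 43.4 CPM in BALB/c and 53.2, 55.3 and 54.55 CPM in C57BL/6, higher by 0.31 (SE 0.040, adjusted p = 0.000187), though on the log2(TPM + 1) scale the difference was 0.12 and did not pass. Itpr3 (chr17:27275971-27343866, plus strand) had the widest spread of the 10 genes relative to its level. Its BALB/c libraries were at 24.3, 16.9 and 13.1 CPM and its C57BL/6 libraries at 25.5, 32.8 and 28.1 CPM, so that S9 nearly reached the lowest C57BL/6 library. The difference was 0.67 (SE 0.19, interval 0.23 to 1.11, adjusted p = 0.0165). It was 0.63 with an adjusted p of 0.054 without S10 and 0.57 with an adjusted p of 0.0623 without S13, and it did not pass on the TPM scale. In TPM the strains overlapped for Itpr3, from 2.06 to 3.95 in BALB/c and from 3.69 to 4.53 in C57BL/6.

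The remaining genes set the membrane potential against which calcium enters. Kcnn4 (chr7:24066915-24086115, plus strand) encodes the calcium-activated potassium channel KCa3.1. It was at 272, 253 and 268 CPM in BALB/c and 418, 432 and 413 CPM in C57BL/6 libraries. The strains were far apart relative to the spread within either. Kcnn4 was 1.59-fold higher in C57BL/6 (log2 fold change 0.67, SE 0.041, interval 0.58 to 0.76, adjusted p = 1.45e-06), the smallest adjusted p of the 10 genes, and between 0.50 and 0.69 under the alternatives. Trpm4 (chr7:44949126-44983986, minus strand) was at 10.8, 11.3 and 9.95 CPM in BALB/c and 12.96, 13.5 and 12.3 CPM in C57BL/6. It was called higher by 0.27 (SE 0.082, interval 0.089 to 0.46, adjusted p = 0.0195), from 338 to 436 reads per library. The call was lost without S11 (0.22, adjusted p = 0.0612), without S13 (0.25, adjusted p = 0.0645), with plain library size (0.13) and on the log2(TPM + 1) scale (0.094). Leaving out S13, which ended the calls of Orai3, Itpr3 and Trpm4, reduced the genes called higher from 8 to 5.

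Gene models on the opposite strand overlap each of these genes except Orai2 and Orai3 in GENCODE, and that of the protein-coding gene Uqcc2 overlaps Itpr3. Models on the same strand also overlap Itpr1 (2), Itpr2 (2) and Itpr3 (1), and strand could not separate their reads. The libraries were stranded, but the strand setting of the counting is not given in the sources used here, so reads of exons that overlap could not be told apart. Near-identical copies were not found, since no other gene shared more than 1.55% of the 31-base words of a gene in GENCODE transcripts.

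The make-up of each family was compared as each gene's share of the family's summed TPM, a ratio within a library that does not depend on the scaling between libraries. An exact permutation test of 3 against 3 libraries, two-sided, cannot go below p = 0.1. Stim1 was 74.8, 78.0 and 73.7% of STIM transcripts in BALB/c and 68.7, 69.5 and 68.5% in C57BL/6, which did not overlap (means 75.5 ± 2.24% and 68.9 ± 0.528%, exact permutation p = 0.1). Orai1 was 33.9, 34.2 and 33.6% of ORAI transcripts in BALB/c and 37.4, 38.7 and 40.1% in C57BL/6 (exact permutation p = 0.1). Orai3 differed the other way, at 40.6 ± 0.894% in BALB/c and 36.7 ± 1.51% in C57BL/6 (exact permutation p = 0.1), and was the most abundant ORAI transcript in each BALB/c library. Orai2 took 25.5 ± 0.602% and 24.6 ± 0.382%, which overlapped (exact permutation p = 0.2).

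Among the receptors Itpr2 was the main gene in both strains, at 66.2 ± 1.65% and 68.5 ± 1.38% (exact permutation p = 0.2, overlapping). Itpr1 was 23.4 ± 1.89% in BALB/c and 19.9 ± 0.223% in C57BL/6 and did not overlap (exact permutation p = 0.1). Itpr3 made up 10.4 ± 2.43% and 11.5 ± 1.30% (exact permutation p = 0.5). None of the 8 shares changed direction when reads replaced TPM or when a library was left out. The Itpr3 difference, 1.145 percentage points with all libraries, ran from 0.16 to 2.51 with a library left out.

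**Figure D3:**
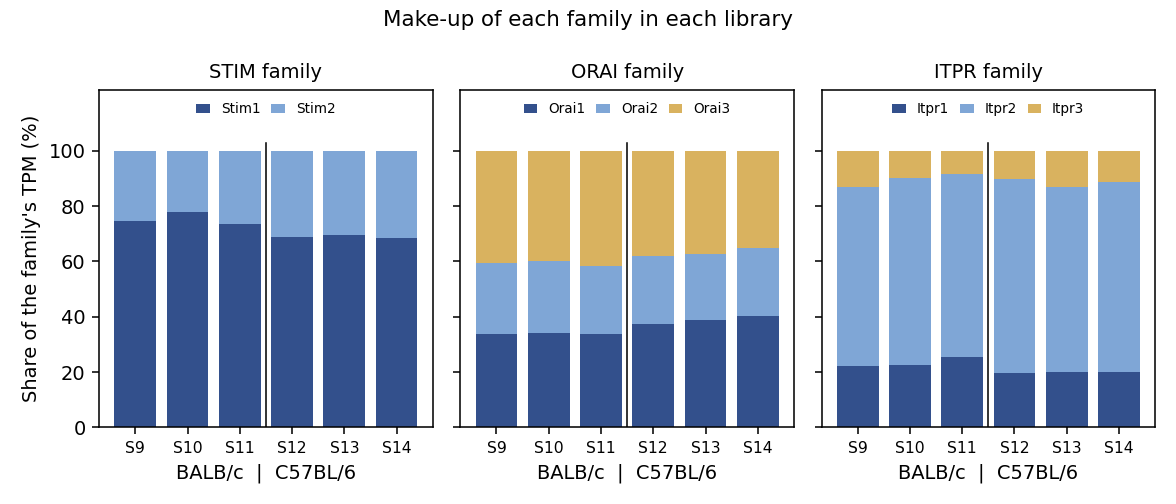
Share of each family's summed TPM (%) taken by each gene in each library, for STIM, ORAI and the inositol trisphosphate receptors, with BALB/c libraries left and C57BL/6 libraries right of the line. The Stim1 share is above 73% in each BALB/c library and below 70% in each C57BL/6 library, and the Orai1 share is higher in each C57BL/6 library.

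Sensors and channels were also set against each other, as ratios of TPM within a library. Summed ORAI over summed STIM transcripts was 1.79, 1.62 and 1.86 in BALB/c libraries, and 2.51, 2.52 and 2.44 in those of C57BL/6 (exact permutation p = 0.1). Summed STIM was 39.1 ± 2.997 TPM in BALB/c and 29.65 ± 1.198 TPM in C57BL/6 without overlap (exact permutation p = 0.1), whereas summed ORAI, at 68.65 ± 2.49 and 73.8 ± 2.26 TPM, overlapped (exact permutation p = 0.2). Unlike the ratios, these sums depend on the scaling. In CPM Orai1, Orai2, Orai3 and Stim2 were each higher in C57BL/6 without overlap, and Stim1 was lower. The ratio of Orai1 to Stim1 TPM was 0.813, 0.712 and 0.850 in BALB/c, with fewer Orai1 than Stim1 transcripts in each library. In C57BL/6 it was 1.37, 1.40 and 1.43, with more Orai1 than Stim1 transcripts in each (exact permutation p = 0.1). Kcnn4 over summed ORAI TPM was 3.02 ± 0.0824 in BALB/c and 3.96 ± 0.127 in C57BL/6, without overlap (exact permutation p = 0.1). The protein levels behind these ratios were not measured here.

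Reads were also divided between transcripts by Salmon, and 56 transcripts of the 10 genes were listed, of which 37 had reads and 28 were tested. Of these 7 passed an adjusted p of 0.05, against 13.6% of the 31918 transcripts tested, and 4 passed a fold change of 2 as well, against 6.32%. Those 4 were of Itpr2 and Kcnn4, and none belonged to the other genes. Salmon's own uncertainty in this division is not part of the fit.

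Itpr2 had 3 transcripts with reads. The transcript NM_010586.2 had 0 estimated reads in S9, S10 and S11 and 811, 1400 and 1524 in S12, S13 and S14. It was the only transcript of the gene with no reads in a strain, and it made up 17.9 ± 6.08% of Itpr2 TPM in C57BL/6. Against an assumed floor of 3 reads per library its C57BL/6 level was 431-fold higher, a value set by that floor. The edgeR fit gave a log2 fold change of 13.3 (adjusted p = 0.00362). Under the alternatives the log2 fold change ran from 2.37 to 13.6, with an adjusted p of up to 0.03. NM_019923.4, the main transcript, had 4919, 4584 and 4955 reads in BALB/c and 6189, 4385 and 6186 in C57BL/6. Its share was 97.2 ± 0.272% in BALB/c and 78.2 ± 6.58% in C57BL/6, and its own difference of 0.25 did not pass the test (adjusted p = 0.178). These transcripts differ in length by 99 bases, as the GENCODE models with and without the printed exon do. That NM_010586.2 lacks this exon rests on the length alone, since the deposited transcripts' sequences were not used here. The third, XM_006507026.5, had 81.1 to 107.2 reads in BALB/c and 143.5 to 215.6 in C57BL/6, a difference of 1.06 that did not pass (adjusted p = 0.09).

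Kcnn4 had 4 transcripts with reads, and all 4 were called. NM_008433.4 carried most of the gene, at 93.0 ± 0.685% of its TPM in BALB/c and 86.7 ± 0.715% in C57BL/6, and was higher in C57BL/6 by 0.56 (SE 0.037, adjusted p = 0.000938). NM_001163510.1 had 95.5, 118.9 and 133.2 reads in BALB/c and 1354, 1346 and 1503 in C57BL/6. Its share was 1.29 ± 0.229% and 10.3 ± 0.726%, and its log2 fold change was 3.65 (adjusted p = 0.000195). The non-coding model XR_391046.4 differed the other way, with 631.3, 564.2 and 608.6 reads in BALB/c and 76.6, 72.2 and 41.2 in C57BL/6, a log2 fold change of -3.16 (adjusted p = 0.00449). XM_006539563.4 had 13.9, 0 and 10.7 reads against 404.3, 355.6 and 516.5, and its call (log2 fold change 5.74, adjusted p = 0.0316) was lost with no filter on low counts and without S9, S11, S12, S13 or S14, where the difference was 5.67 to 6.41. NM_001163510.1 is 85 bases longer than NM_008433.4. The GENCODE models Kcnn4-201 and Kcnn4-202 also differ by 85 bases, at the start of the last exon (chr7:24084062-24084146 of GRCm39, plus strand). Whether the coding sequence differs there was not tested. Whether these models are the deposited transcripts was not tested beyond this length.

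**Figure D4:**
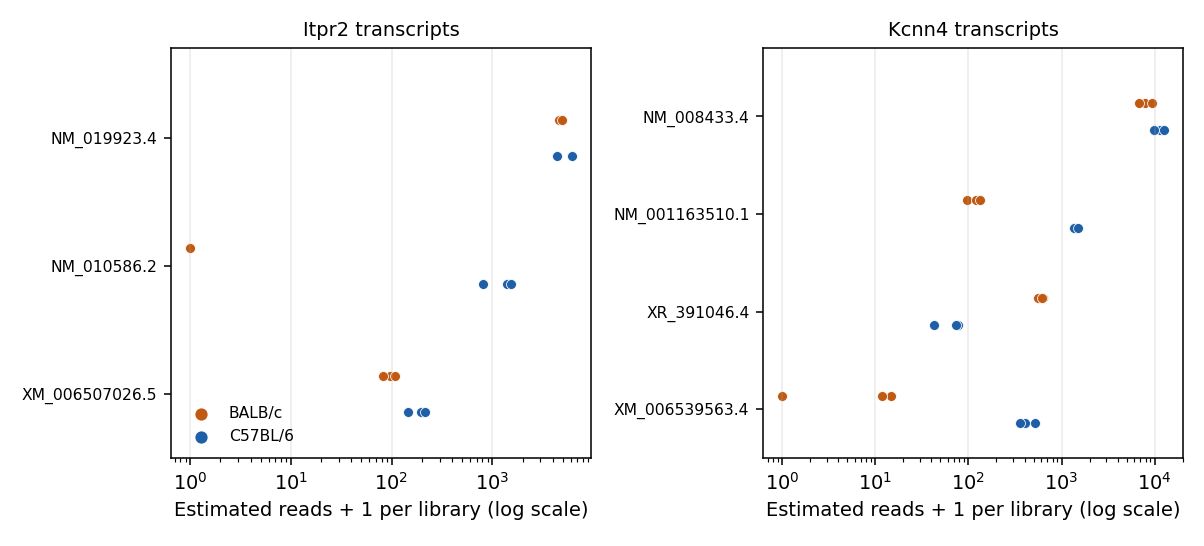
Estimated reads plus 1 (log axis) of each transcript of Itpr2 and Kcnn4 that had reads, with 1 point per library, BALB/c in orange and C57BL/6 in blue. NM_010586.2 of Itpr2 sits at 0 reads in all 3 BALB/c libraries and at 811 or more in C57BL/6, and XR_391046.4 is the only transcript shown that is lower in C57BL/6.

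In the other genes 1 transcript carried most reads. NM_009287.5 of Stim1 took 94.6 ± 1.97% of the gene's TPM in BALB/c and 94.1 ± 3.56% in C57BL/6, and was lower (log2 fold change -0.38, adjusted p = 0.0435), a call lost without filter (-0.39, adjusted p = 0.0666) and without S9, S10, S12, S13 or S14, where the difference was -0.41 to -0.31. NM_175423.3 of Orai1 was higher by 0.48 (adjusted p = 0.0101), at 93.0 ± 1.43% and 94.4 ± 3.45% of the gene. Exceptions were Itpr1, with 8 of 19 listed transcripts in use, and Trpm4, with 6 of 11. NM_175130.4 of Trpm4 varied from library to library, with 318.0, 116.7 and 211.5 reads in BALB/c and 178.1, 136.7 and 109.4 in C57BL/6. XM_006541146.5 of the same gene had 0, 96.9 and 0 reads in BALB/c and 190.8, 157.5 and 299.2 in C57BL/6, without overlap, as for 34.9% of the transcripts tested. Its share of Trpm4 TPM was 9.94 ± 17.2% in BALB/c and 54.4 ± 13.8% in C57BL/6. Its log2 fold change of 2.62 did not pass (adjusted p = 0.61), though on the log2(TPM + 1) scale it did (1.29, adjusted p = 0.0486). It also passed without S10 (adjusted p = 0.00939). As S10 was the only BALB/c library with reads, that run could hardly fail and adds no evidence. No transcript of Itpr1 or Trpm4 was called with all libraries on the count scale.

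Because BALB/c reads were assigned to reference transcripts based on C57BL/6, a base that differs in BALB/c can move reads between transcripts or leave them unassigned, and its part in these values was not tested.

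Genes that act around store-operated entry were grouped in 6 lists, and are given by count beside the same count over all genes (27.0% higher, 25.9% lower). The split of calls depends on scaling, from 3361 higher and 3227 lower over all genes with TMM to 2285 and 5520 with plain library size. Of 14 tested regulators of STIM and ORAI, 5 were higher and 2 lower, against 5 and 6 with plain library size. Saraf, which inactivates STIM1 and so limits calcium entry, was higher in C57BL/6 by 0.92 (SE 0.037, adjusted p = 1.21e-07), at 88.55 ± 2.1 TPM in BALB/c and 147.6 ± 4.36 TPM in C57BL/6. Adcy8, a calcium-stimulated adenylyl cyclase that binds ORAI1, differed by 4.60 (SE 0.20, adjusted p = 1.87e-07). It was at 0.475 TPM in BALB/c and 10.2 TPM in C57BL/6. Stimate, which helps STIM1 to reach the junctions with the plasma membrane, was not called (-0.18, adjusted p = 0.153), nor was Pdia3, a folding enzyme of the store and the most abundant gene of the list (0.069, adjusted p = 0.205).

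Upstream, 17 genes of phospholipase C and inositol phosphate turnover were tested, of which 8 were higher and 3 lower, against 5 and 6 with plain library size. Plcg1, a phospholipase C that acts below the IgE receptor, was lower in C57BL/6 (log2 fold change -1.13, SE 0.042, adjusted p = 6.62e-08), from 58.2 to 23.5 TPM. Its homologue Plcg2 was at 34.2 TPM in BALB/c and 29.2 TPM in C57BL/6 and was not called (-0.050, adjusted p = 0.306). Itpripl1, named for its likeness to a receptor-interacting protein, was lower (log2 fold change -1.05, SE 0.075, adjusted p = 4.06e-06). These were the only genes of the list past a fold change of 2, and the median difference of the list was 0.24.

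Calcium pumps, exchangers and store leak genes gave 4 higher and 4 lower of 14 tested, against 1 and 10 with plain library size. Atp2b4, a plasma membrane pump that expels calcium, was higher by 2.29 (SE 0.23, adjusted p = 3.3e-05), at 2.75 TPM in BALB/c and 11.5 TPM in C57BL/6. Another such pump, Atp2b1, was lower (log2 fold change -0.33, SE 0.059, adjusted p = 0.00144). Slc8a1, a sodium-calcium exchanger, was lower (log2 fold change -1.23, SE 0.098, adjusted p = 7.98e-06), and Atp2a1, a pump best known from muscle, was lower as well (log2 fold change -1.59, SE 0.28, adjusted p = 0.00119), both under 2 TPM. The pumps that refill the store were more abundant. Atp2a2 was at 128 and 90.8 TPM and was lower (log2 fold change -0.32, SE 0.038, adjusted p = 0.000109), while Atp2a3, at 224 and 186 TPM, was not called (-0.084, adjusted p = 0.0785). Calr, the calcium-binding chaperone of the store and the most abundant gene of the list, was not called (-0.066, adjusted p = 0.172).

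Downstream of entry, 18 genes of calmodulin, calcineurin and NFAT gave 4 higher and 4 lower, against 2 and 8 with plain library size, and 2 were lower without S13. Ppp3cc, a catalytic subunit of calcineurin, was higher by 1.09 (SE 0.17, adjusted p = 0.000477), at 2.05 and 3.81 TPM. Of the NFAT factors, which calcineurin activates, Nfatc2 was higher by 0.40 (SE 0.065, adjusted p = 0.000775), whereas Nfatc1 (0.17, adjusted p = 0.0571) and Nfatc3 (0.065, adjusted p = 0.251) were not called. Calm2, the most abundant gene of this list, was not called (-0.066, adjusted p = 0.199).

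Mitochondrial calcium uptake genes gave 4 higher and 3 lower of 12 tested, against 1 and 7 with plain library size, with none past a fold change of 2. The count of lower genes was 1 without S11 or without S12, and 5 with upper-quartile factors. Mcu, the pore of the uniporter, was not called (-0.051, adjusted p = 0.451), and its essential subunit Smdt1, the most abundant gene of the list, was lower (log2 fold change -0.27, SE 0.043, adjusted p = 0.000746). Of 28 listed other store and membrane channels 11 were tested, with 4 higher and 2 lower, against 2 and 2 with plain library size. The higher count was 2 without S10, S12 or S14, and the lower count was 1 without S11. Mcoln2, a lysosomal cation channel, was higher by 1.76 (SE 0.28, adjusted p = 0.000624) at under 1 TPM in both strains. Trpv2, a cation channel of the plasma membrane and the most abundant gene of this list, was lower (log2 fold change -0.94, SE 0.10, adjusted p = 6.8e-05), from 42.0 to 19.4 TPM.

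**Figure D5:**
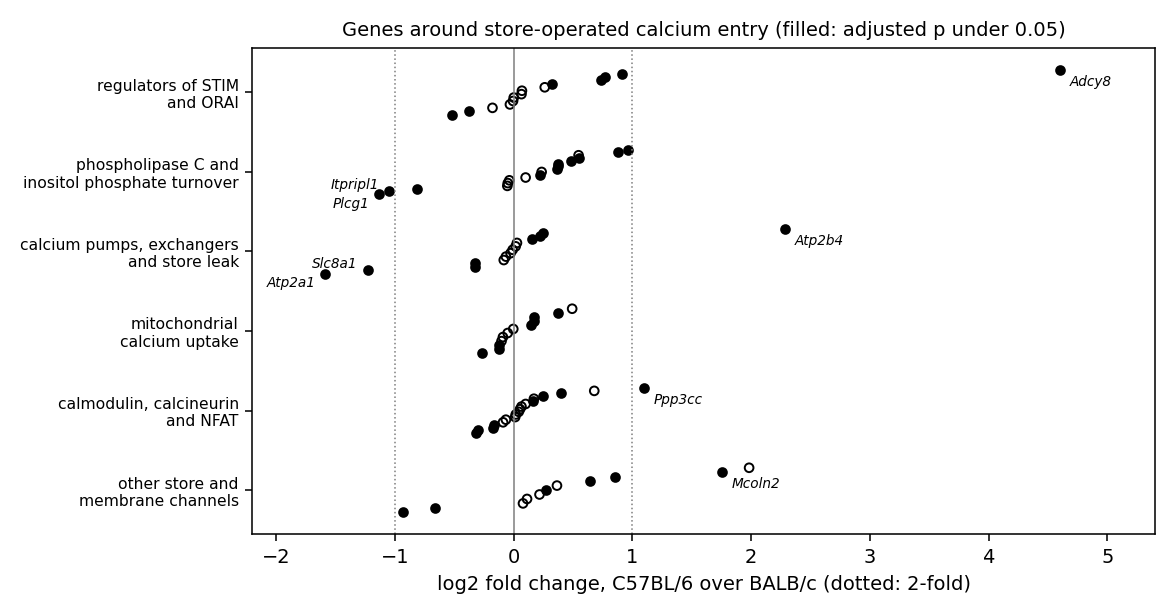
Log2 fold change, C57BL/6 over BALB/c with TMM, of each tested gene in the 6 lists, filled where the adjusted p was under 0.05, with dotted lines at a fold change of 2 and names for called genes past it. Most genes lie between the dotted lines, and with plain library size the median of all genes was -0.15 in place of -0.007.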

How the data were processed

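RNA of BMMCs on day 20 was sequenced from poly(A)-selected, stranded libraries. The authors checked the reads with FastQC 0.11.5 and quantified them with Salmon 0.8.2. The deposited values are estimated counts of reads per transcript, which need not be whole, and TPM values, in which the authors' tool corrected for effective length and for sequencing depth. The study's methods name Ensembl transcripts of GRCm39, whereas the deposited tables list RefSeq accessions.

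Accessions, version removed, were matched to genes through a RefSeq table of GRCm38.p6 (106440 of 129698 transcripts). Unmatched transcripts held 2.69 to 3.12% of reads and entered no test of genes. The sums of estimated counts per gene were rounded. Strains were compared in R 4.3.3 by the quasi-likelihood test of edgeR 4.0.16 with TMM, its filter at a minimum count of 10 and Benjamini-Hochberg adjustment over the 12461 genes, or 31918 transcripts, tested. The biological coefficient of variation was 0.0665. Scripts were tested on simulated data. Alternatives were DESeq2 1.42.0, an offset for transcript length, other normalizations and filters, limma 3.58.1 on log2(TPM + 1) or log2(TPM + 0.1), unmatched transcripts kept, and each library left out. Shares were compared with scipy 1.17.1.

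The 10 genes and the lists were chosen with earlier results of these data known. Named from each list were genes past a fold change of 2 (up to 3 per direction), its most abundant gene, and in any case Saraf, Stimate, Atp2a2, Atp2a3, Atp2b1, Plcg1, Plcg2, Mcu, Nfatc1, Nfatc2 and Nfatc3.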

Additional observations from a re-analysis of the deposited data

How the results depend on the processing

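Stim1, Orai1, Itpr2 and Kcnn4 kept direction and call under each alternative test, scaling, filter and left-out library, and lost the call only where a fold change of 2 was also required. Elsewhere the cause of a change was not tested. With plain library size, Stim2 was at -0.016 and Orai3 at -0.007, both reversed, and Orai2 (0.083) and Trpm4 (0.13) were no longer called. The calls became 5 higher among the 10 genes, 6 lower among regulators of STIM and ORAI, 5 higher and 6 lower for phospholipase C and inositol phosphate turnover, 1 and 10 for pumps, exchangers and store leak, 1 and 7 for mitochondrial uptake, 2 and 8 for calmodulin, calcineurin and NFAT, 2 higher for other channels, and 5520 lower over all genes. With limma on log2(TPM + 1), Stim2 was at -0.045 and Orai3 at -0.039, and Orai2 (0.046), Itpr1 (0.117), Itpr3 (0.40) and Trpm4 (0.094) were not called. On log2(TPM + 0.1) these were -0.050, -0.040, 0.049, 0.132, 0.514 and 0.116. Both TPM scales gave 3 higher among the 10 genes, 8 lower for regulators, 3 higher and 6 lower for phospholipase C, 1 and 10 for pumps, 0 and 7 for mitochondrial uptake, 2 and 9 for calmodulin, and 2 higher for other channels. Over all genes they gave 2035 higher and 5834 lower with a pseudocount of 1, and 2029 and 5830 with 0.1.

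DESeq2 did not call Orai3 (0.141, adjusted p = 0.0996), nor did upper-quartile factors (0.116), no filter (0.131) or unmatched transcripts kept (0.13). The last did not call Itpr3 either (0.663) and gave 2 higher and 1 lower for other channels, where DESeq2 gave 2 higher. Upper-quartile factors gave 5 lower for mitochondrial uptake. Also requiring a fold change of 2 left 0 higher and 0 lower of the 10 genes, 1 and 0 of the regulators, 0 higher for phospholipase C, 1 and 2 for pumps, 0 and 0 for mitochondrial uptake, 1 and 0 for calmodulin, 1 and 0 for other channels, and 963 and 690 of all genes.

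With each library left out in turn, Orai3 ranged from 0.109 to 0.166, Itpr3 from 0.475 to 0.942 and Trpm4 from 0.222 to 0.316. The genes of the 10 called higher ranged from 5 to 8, mitochondrial genes called lower from 1 (without S11 or S12) to 3, calmodulin genes called lower from 2 (without S13) to 4, and other channels called higher from 2 (without S10, S12 or S14) to 4 and lower from 1 (without S11) to 2. Summing genes that share sequence gave no value, since none shared 25% of words. No paired analysis was possible because the strains share no replicate number. Among the 10 genes depth was lowest for Trpm4, at 338 to 436 reads per library.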
